A study of Mus musculus with 9 samples.

Results

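Autophagy genes were examined in RAW264.7 cells, a macrophage line that was derived from a mouse leukemia. The 40 genes were listed by their names, as known parts of the autophagy machinery. Earlier results of these data were known when the list was made. All 40 were found among the 28137 genes of the table. The libraries fell into 3 groups of 3, which were transfected with a control (NC) siRNA, with SFRP2 siRNA or with RAB6A siRNA. Per the labels, every culture, controls included, received 60 nM of siRNA for 6 h and complete DMEM for 12 h, and was then given 100 ng/ml of lipopolysaccharide (LPS), a bacterial product that activates macrophages, for 24 h. The library titles also end in 6H, whose meaning beside these times is not stated. The study's methods for these cells also name IFN-γ, which the labels do not. The libraries of every group carry numbered names. Those of the SFRP2 siRNA group are siRNA names, which the study also gives to siRNAs of different sequence. Whether each library of the SFRP2 siRNA group received another siRNA is not stated. If so, the spread of this group and its p-values include differences between siRNAs. There was no group without LPS and none without transfection. The cells are a single tumor line, and the labels do not say whether the 3 libraries of a group came from separate cultures. If they did not, the p-values measure technical spread only.

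Autophagy encloses a part of the cytoplasm in a double membrane, the autophagosome, which then fuses with the lysosome. The ULK kinase complex starts the process and the class III PI3-kinase complex marks the membrane with a lipid. The lipid transfer protein ATG2 and the membrane protein ATG9 help to enlarge the membrane. A conjugation system attaches the small ATG8 proteins (LC3 and GABARAP) to this membrane. Receptors such as p62 bind cargo to ATG8. In macrophages, the same machinery also takes part in the disposal of bacteria and in the control of inflammation. mRNA levels do not measure the flow of cargo through this pathway.

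Values were FPKM, the fragments of a gene scaled to its length and to the size of the library, so that levels of different genes can be set side by side. Between 32297214 and 46544869 reads per library lay behind them. All 8 macrophage markers examined were present. Of 14 markers of other cell types, 3 were not listed, and the listed markers summed to between 2.90 and 5.90 FPKM per library, while those of macrophages summed to between 3921 and 4909. Cd3g, a marker of T cells, was at 0 in all NC and SFRP2 siRNA libraries. In RAB6A siRNA, the macrophage marker Lyz2 was at 214 ± 23.0 FPKM (SD, n = 3) against 872 ± 24.0 in NC, Csf1r was at 27.0 ± 1.19 against 73.6 ± 8.48, and Fcgr1 was also lower (log2 fold change -0.75). Ptprc rose by 0.17 (adjusted p = 0.0285 in limma), and Adgre1, Itgam, Cd68 and Cd14 did not pass the test, with means of 56.3, 24.7, 1682 and 1943 FPKM against 56.3, 23.1, 1850 and 1679. Whether these shifts had a part in the results below was not tested. In such bulk libraries, fewer cells of a kind and less RNA per cell cannot be told apart.

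The targeted genes were looked at first. Sfrp2 was at 0.0223, 0.0197 and 0.0219 FPKM in the NC libraries and at 0.0458, 0.0478 and 0.0267 FPKM in the SFRP2 siRNA libraries. A level of 3 reads corresponds to between 0.0296 and 0.0425 FPKM, depending on the library. Sfrp2 mRNA was therefore too scarce in all groups to check the labels. Rab6a was at 24.3, 27.3 and 25.5 FPKM in NC and at 21.2, 20.7 and 20.4 FPKM in RAB6A siRNA. The RAB6A siRNA libraries were all lower, with a log2 fold change of -0.31 (SE 0.06, adjusted p = 0.0024 in limma). After a correction for GC content and exon length, the difference was 0.018 with an adjusted p of 0.794. The library label RAB6A siRNA thus went with a modest reduction that was lost in this correction, and groups are named here as labeled.

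The machinery was expressed at very unequal levels in the LPS-treated NC cells. The receptor gene Sqstm1, which encodes p62, was by far the most abundant member, at 344, 305 and 337 FPKM. Gabarap followed at 90.5, 91.2 and 88.6 FPKM. Atg13, Atg3, Gabarapl1, Vmp1, Wdfy3, Ambra1, Nbr1 and Tax1bp1 had means between 10.2 and 36.8 FPKM. At the lower end, Wipi1 had a mean of 0.266 FPKM and Atg16l2 of 0.741. The receptor gene Optn was nearly silent, with 0.0125 to 0.197 FPKM over all 9 libraries, and did not reach the mean of 0.5 FPKM that was required for a test. Together the members took 0.191% ± 0.00882 of all FPKM in NC, 0.176% ± 0.0118 in SFRP2 siRNA and 0.2005% ± 0.00626 in RAB6A siRNA (SD, n = 3). The plot of all members by library shows these differences on the log2 scale.

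**Figure D1:**
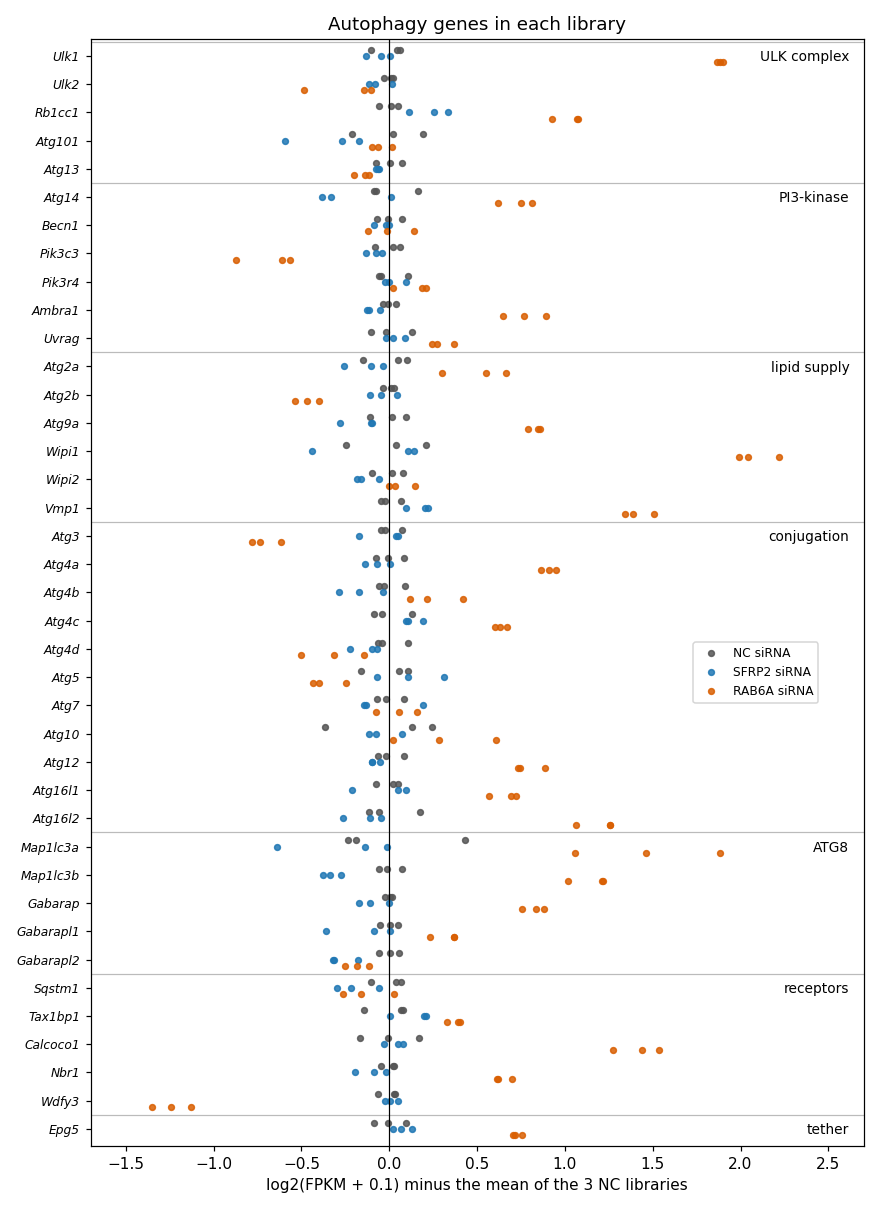
Each point is a library, and the horizontal axis gives log2(FPKM + 0.1) minus the mean of the 3 NC libraries, for the 39 members other than Optn, ordered by role from the ULK complex to the tether Epg5. The SFRP2 siRNA libraries lie close to NC, while most RAB6A siRNA libraries lie to the right, with Ulk1 at a fitted change of 1.88, and Wdfy3 is the farthest to the left at -1.24.

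The first comparison asked whether the autophagy genes differed between LPS-treated cells given SFRP2 siRNA and those given NC siRNA. Whether Sfrp2 was silenced could not be checked, since its mRNA was too scarce. No member passed the test. Of the 38 members tested, 0 had an adjusted p under 0.05 in limma, and 0 in voom on the recovered reads. Across all genes, limma called 0% of 12017, and voom called 42 of 11903 (7 higher and 35 lower). At an unadjusted p under 0.05, 2 members (5.26%) were higher and 4 (10.5%) were lower, against 7.73% and 10.7% of all genes tested. Both shares lay near or under the background. A higher mean, with no threshold, was found for 10 of the 38 members and for 47.5% of all genes. The groups did not overlap for 2 members that were higher and 4 that were lower (5.26% and 10.5%, against 10.9% and 13.9% of all genes). The median log2 fold change of the members was -0.07, against -0.01 for all genes. Wipi1 and Optn were not tested in this comparison. These p-values miss the threshold and do not show that the levels were alike.

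The smallest p-values belonged to 2 genes of the ATG8 family. Map1lc3b, which encodes LC3B, the common marker protein of autophagosomes, was at 4.05, 4.29 and 3.92 FPKM in NC and at 3.36, 3.12 and 3.21 FPKM in SFRP2 siRNA. These groups did not overlap. The log2 fold change was -0.33 (SE 0.07, unadjusted p = 0.00189, adjusted p = 0.165), and the adjusted p ranged from 0.0624 to 0.443 over the alternatives. Gabarapl2, which encodes GATE-16, was at 8.06, 8.74 and 8.43 FPKM in NC and at 7.42, 6.70 and 6.73 FPKM in SFRP2 siRNA, again without overlap. Its log2 fold change was -0.27 (SE 0.06, unadjusted p = 0.00362, adjusted p = 0.178). All 5 ATG8 genes had a lower mean in SFRP2 siRNA, with log2 fold changes from -0.33 to -0.09, but none was called. A lower mean was also found for 28 of the 38 members tested, and 47.5% of all genes had a higher mean. For Map1lc3a, Gabarap and Gabarapl1 the groups overlapped. The family was looked at because it held the smallest p-values.

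Outside this family, Atg101, a subunit that stabilizes ATG13 in the ULK complex, was at 9.21, 6.95 and 8.19 FPKM in NC and at 7.15, 6.68 and 5.30 FPKM in SFRP2 siRNA (log2 fold change -0.34, SE 0.14, unadjusted p = 0.0416, adjusted p = 0.255). The groups overlapped. In the other direction, Vmp1, a membrane protein of the endoplasmic reticulum that moves lipids between the leaflets of the membrane, was at 19.6, 20.9 and 19.3 FPKM in NC and at 22.9, 23.2 and 21.3 FPKM in SFRP2 siRNA. Its groups did not overlap (log2 fold change 0.17, SE 0.06, unadjusted p = 0.0176, adjusted p = 0.204). Rb1cc1, which encodes FIP200, the scaffold of the ULK complex, was at 2.45, 2.38 and 2.26 FPKM against 2.84, 3.01 and 2.56 FPKM (log2 fold change 0.23, SE 0.09, unadjusted p = 0.0319, adjusted p = 0.234). These groups did not overlap either. Atg4c, a protease that trims ATG8 proteins, was at 3.64, 4.25 and 3.76 FPKM against 4.15, 4.45 and 4.18 FPKM, with overlap (log2 fold change 0.13, SE 0.08, unadjusted p = 0.136, adjusted p = 0.392).

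GC content moved with this comparison. Across 11903 genes, the log2 fold change fell with the GC content of the exons (Spearman's rho -0.482, a description across genes of the same 6 libraries). After the correction for GC content and length, Rb1cc1 was at 0.053 and Map1lc3b at -0.29 on the log2 scale, and no gene was called.

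The second comparison set RAB6A siRNA against NC. RAB6A is a small GTPase that directs vesicles at the Golgi. Here 79.5% of the autophagy genes tested were called, near the 74.1% of all genes, and most of those called were higher. Of the 39 members tested, 23 rose (59.0%), 8 fell (20.5%) and 8 did not pass the test. The 23 include Wipi1, which passed the filter on low values only through the RAB6A siRNA group. Wipi1 is also counted below in the median, in the log2 fold changes over 1 and in the groups without overlap. Of all 12712 genes tested, 74.1% were called, 37.6% higher and 36.5% lower. The members' share of higher calls lay above this background and their share of lower calls below it. The median log2 fold change of the members was 0.37, against 0.03 for all genes. A log2 fold change over 1 was reached by 8 members (20.5%, against 17.3% of all genes), and 1 member, Wdfy3, was under -1 (2.56%, against 12.8%). The groups did not overlap for 23 members that were higher (59.0%, against 39.2% of all genes) and 9 that were lower (23.1%, against 38.2%). This comparison shares its NC libraries with the first.

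**Figure D2:**
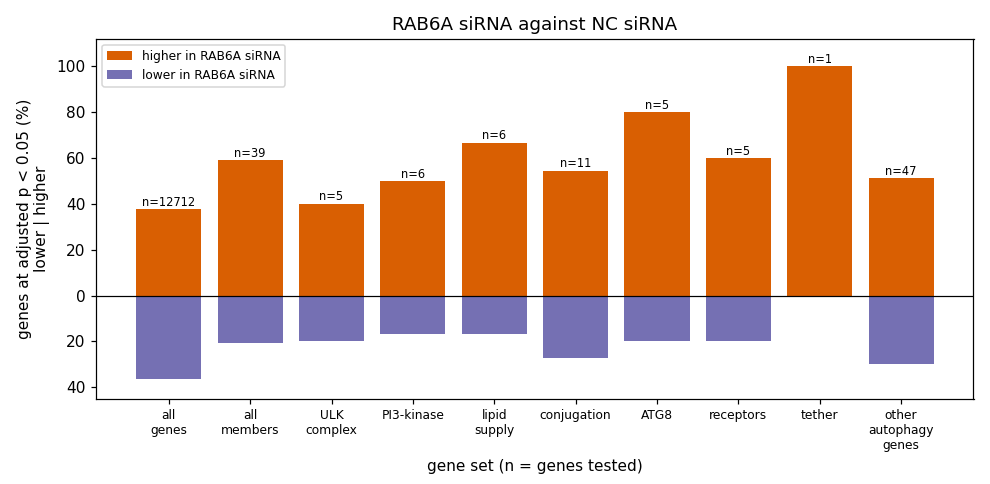
Bars give the percent of tested genes called at an adjusted p under 0.05 in RAB6A siRNA against NC siRNA, higher above the line and lower below it, for all genes, all members, each role and 50 further autophagy genes, with the number tested above each bar. Among the members 59.0% were higher and 20.5% lower, against 37.6% and 36.5% of all genes. Wipi1, which passed the filter only through the RAB6A siRNA group, is counted here.

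In the ULK complex, the kinase gene Ulk1 rose and its relative Ulk2 did not. Ulk1 (ENSMUSG00000029512, chromosome 5, 110784488 to 110810097 on GRCm38) was at 2.40, 2.13 and 2.38 FPKM in NC, at 2.09, 2.22 and 2.31 FPKM in SFRP2 siRNA, and at 8.75, 8.63 and 8.86 FPKM in RAB6A siRNA. All RAB6A siRNA libraries stood far above the other groups. The log2 fold change was 1.88 (SE 0.07, adjusted p = 1.54e-06). Ulk2 was at 4.44, 4.47 and 4.32 FPKM in NC and at 3.13, 3.98 and 4.10 FPKM in RAB6A siRNA (log2 fold change -0.24, adjusted p = 0.0781). Its groups did not overlap, and the adjusted p was 0.0444 without RAB6A siRNA replicate 3 and 0.0331 in voom. Ulk1 thus made up 34.3% ± 1.74 of the summed FPKM of both kinases in NC, 34.3% ± 0.479 in SFRP2 siRNA and 70.2% ± 3.04 in RAB6A siRNA (SD, n = 3). The libraries did not overlap, and the exact two-sided permutation test gave p = 0.1, the smallest that 3 against 3 allows.

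The scaffold gene Rb1cc1 was at 5.07, 4.58 and 5.09 FPKM in RAB6A siRNA and also rose (log2 fold change 1.02, SE 0.08, adjusted p = 2.03e-05). Atg13, the most abundant gene of the complex, which links the kinase to the scaffold, was at 36.9, 34.9 and 38.8 FPKM in NC, at 35.3, 35.2 and 34.9 FPKM in SFRP2 siRNA and at 33.4, 32.0 and 33.9 FPKM in RAB6A siRNA. It fell by 0.15 on the log2 scale with an adjusted p of 0.0478, and the call was fragile. Without 1 of NC replicate 1, NC replicate 3, RAB6A siRNA replicate 1 or RAB6A siRNA replicate 2, its adjusted p was between 0.0815 and 0.151, and after quantile normalization its log2 fold change was 0.013. Atg101 had a log2 fold change of -0.05 and did not pass, and after the correction for GC content and length it was at -0.34 (adjusted p = 0.0184).

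In the class III PI3-kinase complex, the catalytic subunit and its partners went different ways. Pik3c3, which encodes the kinase VPS34, was at 6.70, 6.50 and 6.06 FPKM in NC, at 6.23, 6.07 and 5.83 FPKM in SFRP2 siRNA and at 4.17, 3.45 and 4.29 FPKM in RAB6A siRNA. It fell by 0.68 on the log2 scale (SE 0.10, adjusted p = 0.000441), with no overlap. After the correction for GC content and length, it fell by 0.35. Ambra1, a regulator of the complex and its most abundant gene here, rose from 11.3, 10.7 and 10.9 FPKM to 20.4, 18.7 and 17.2 FPKM (log2 fold change 0.77, adjusted p = 5.31e-05). In SFRP2 siRNA it was at 10.6, 10.0 and 10.1 FPKM. Atg14, which directs the complex to the forming autophagosome, rose by 0.73, and Uvrag, which takes its place in the complex of later endosomal steps, rose by 0.29. The call for Uvrag was lost without NC replicate 2 (adjusted p = 0.0543), and 17.6% of its exon bases overlap another gene. Becn1, which encodes the scaffold Beclin 1, was at 7.03 ± 0.35 FPKM in NC and 7.06 ± 0.65 in RAB6A siRNA (SD, n = 3), with 43.9% of its exon bases shared with another gene. It did not pass in the fit of all genes, and after the correction for GC content and length its log2 fold change was 0.31 (adjusted p = 0.0117). Pik3r4, the regulatory subunit VPS15, had a log2 fold change of 0.14 and did not pass, but was at 0.35 after this correction (adjusted p = 0.0068).

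Among the 6 genes of lipid supply and membrane growth, 4 rose (66.7%, against 37.6% of all genes) and 1 fell (16.7%, against 36.5%). The 4 include Wipi1. Wipi1, which encodes a protein that binds the lipid made by VPS34, was under the filter of 0.5 FPKM in NC and was tested only because its level was high in RAB6A siRNA, so that it had to differ. It lies on chromosome 11 from 109573331 to 109611967 (GRCm38, - strand). Wipi1 was at 0.273, 0.207 and 0.320 FPKM in NC, at 0.168, 0.292 and 0.300 FPKM in SFRP2 siRNA and at 1.59, 1.40 and 1.34 FPKM in RAB6A siRNA. The fitted log2 fold change was 2.08 (SE 0.21), and with a pseudocount of 1 it was 0.95. It is given here as a description, with no test. Its more abundant relative Wipi2 was at 7.63 ± 0.48 FPKM in NC and 7.95 ± 0.44 in RAB6A siRNA and did not pass, with a log2 fold change of 0.25 after the correction for GC content and length (adjusted p = 0.0101). The share of Wipi1 in the WIPI pair was 3.35% ± 0.498 in NC, 3.55% ± 1.13 in SFRP2 siRNA and 15.4% ± 0.579 in RAB6A siRNA. With the length of the longest coding transcript in place of all exons, this share was 2.20%, 2.33% and 10.5%.

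Vmp1, the most abundant gene of this role, was at 56.7, 50.6 and 52.4 FPKM in RAB6A siRNA, far from the NC values given above. It rose by 1.41 on the log2 scale (SE 0.06, adjusted p = 2.33e-06). The genes of the ATG2 lipid transfer proteins moved apart. Atg2a rose by 0.51 (adjusted p = 0.00419). Atg2b was at 5.97, 5.70 and 5.91 FPKM in NC, at 5.67, 5.42 and 6.04 FPKM in SFRP2 siRNA and at 4.01, 4.21 and 4.41 FPKM in RAB6A siRNA, and fell by 0.47 (SE 0.07, adjusted p = 0.000482). Atg2a held 52.3% ± 1.80 of the pair in NC and 68.5% ± 3.86 in RAB6A siRNA, with no overlap (exact p = 0.1, the smallest possible). With the length of the longest coding transcript in place of all exons, Atg2a held 42.6% in NC and 59.6% in RAB6A siRNA. Atg9a, which encodes the membrane protein of the seed vesicles, rose by 0.83 (adjusted p = 3.76e-05), and 32.6% of its exon bases overlap other genes.

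Genes of the conjugation system moved in both directions. Of its 11 genes, 6 rose (54.5%, against 37.6% of all genes), 3 fell (27.3%, against 36.5%) and 2 did not pass. Atg3, which encodes the enzyme that hands ATG8 to its lipid, was at 27.9, 30.3 and 28.4 FPKM in NC, at 25.5, 29.8 and 29.6 FPKM in SFRP2 siRNA and at 16.7, 17.2 and 18.8 FPKM in RAB6A siRNA. It was the most abundant gene of the system, and it fell by 0.71 on the log2 scale (SE 0.07, adjusted p = 4.56e-05). Atg5, whose product is joined to ATG12, was at 7.19, 7.45 and 6.18 FPKM in NC, at 8.61, 7.46 and 6.58 FPKM in SFRP2 siRNA and at 5.81, 5.23 and 5.09 FPKM in RAB6A siRNA. It fell by 0.36 (SE 0.09, adjusted p = 0.00903), and the call was lost after the correction for GC content and length (adjusted p = 0.107).

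Partners of ATG5 went the other way. Atg12 rose by 0.79 (adjusted p = 3.98e-05) and Atg16l1, which completes the complex, by 0.66 (adjusted p = 0.000114). Atg16l2, a relative of Atg16l1, was at 0.846, 0.674 and 0.703 FPKM in NC, at 0.710, 0.677 and 0.598 FPKM in SFRP2 siRNA and at 1.90, 1.90 and 1.65 FPKM in RAB6A siRNA. It rose by 1.19 (SE 0.15, adjusted p = 0.000187), with no overlap. Atg7, the activating enzyme of both conjugation reactions, was at 6.63 ± 0.37 FPKM in NC and 6.85 ± 0.56 in RAB6A siRNA, and Atg10, which joins ATG12 to ATG5, was at 1.94 ± 0.43 and 2.41 ± 0.51 FPKM (SD, n = 3). Neither passed the test, but Atg7 was called after the correction for GC content and length (log2 fold change 0.25, adjusted p = 0.0174).

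The 4 genes of the ATG4 proteases, which trim ATG8 and release it from the membrane, also differed. Atg4a rose by 0.91 (adjusted p = 1.3e-05) and Atg4c by 0.63 (adjusted p = 0.000214). Atg4b rose by 0.25 with an adjusted p of 0.048. This call was lost without 1 of NC replicate 1, NC replicate 2, RAB6A siRNA replicate 1 or RAB6A siRNA replicate 2, with an adjusted p of up to 0.14. Atg4d was at 2.06, 2.09 and 2.33 FPKM in NC, at 2.05, 1.83 and 2.00 FPKM in SFRP2 siRNA and at 1.94, 1.71 and 1.49 FPKM in RAB6A siRNA. It fell by 0.32 (SE 0.12, adjusted p = 0.0459), and the call was lost without any 1 of the NC libraries or without RAB6A siRNA replicate 2 or 3 (adjusted p up to 0.137). Of its exon bases, 19.3% overlap another gene. Its share of the summed ATG4 FPKM was 12.9% ± 0.935 in NC and 6.73% ± 0.758 in RAB6A siRNA, while that of Atg4a went from 41.5% ± 2.30 to 51.6% ± 1.78.

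Promoter sequences are shown for Atg3 and Atg5, since both genes fell and both windows hold the E-box CACGTG, the core of the sites bound by TFEB and related factors, and for Vmp1, which rose by 1.41, whose window holds TGACNNNGC, the core of the antioxidant response element. They are from RefSeq on GRCm38.p6 and end before the transcription start. Capitals mark the motif, on either strand. The Atg3 window is chr16:45158579-45158784 on the + strand, that of Atg5 is chr10:44268089-44268338 on the + strand, and that of Vmp1 is chr11:86683837-86684086 on the - strand.
Atg3: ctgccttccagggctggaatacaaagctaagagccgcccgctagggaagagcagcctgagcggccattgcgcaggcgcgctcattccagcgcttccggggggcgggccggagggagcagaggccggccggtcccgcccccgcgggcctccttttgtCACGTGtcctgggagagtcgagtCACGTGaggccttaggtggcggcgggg
Atg5: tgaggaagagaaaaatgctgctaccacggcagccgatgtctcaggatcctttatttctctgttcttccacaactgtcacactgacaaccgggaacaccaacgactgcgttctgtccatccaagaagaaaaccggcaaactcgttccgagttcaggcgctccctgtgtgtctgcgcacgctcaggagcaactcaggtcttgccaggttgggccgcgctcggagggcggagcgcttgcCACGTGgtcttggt
Vmp1: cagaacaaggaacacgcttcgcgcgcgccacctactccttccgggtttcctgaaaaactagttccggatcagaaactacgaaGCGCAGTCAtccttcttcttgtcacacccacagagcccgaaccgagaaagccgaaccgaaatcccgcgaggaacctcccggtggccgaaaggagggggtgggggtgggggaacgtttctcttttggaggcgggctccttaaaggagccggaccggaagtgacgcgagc

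The Atg3 window holds the E-box at 94 and at 71 bases before the RefSeq start, and that of Atg5 at 14 bases. The Vmp1 motif starts 168 bases before its RefSeq start. Among 38 windows of 32 members, CACGTG was found in 3 (7.89%, in Atg3, Atg5 and Atg7), against 6.02% of 32851 windows of all genes. TGACNNNGC was found in 6 windows (15.8%, in Atg13, Tax1bp1, Ulk2 and 3 windows of Vmp1), against 10.2%. A loose form of the NF-kB site was found in 50% against 45.8%. The longer TFEB site, of which CACGTG is the core, was in 0 member windows and in 0.24% of all, and TCACGTGA was in 1 member window (2.63%, in Atg3) against 0.785%. The windows shown were picked by motif and direction of change together. Atg7, with the same E-box, had a log2 fold change of 0.04 in RAB6A siRNA and did not pass in the fit of all genes. Of the other genes with TGACNNNGC, Tax1bp1 rose by 0.37, Atg13 fell by 0.15 in a fragile call, and Ulk2 did not pass. A match is a run of letters and not evidence of binding, windows of 1 gene can overlap, and these shares were not tested.

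The ATG8 family rose in RAB6A siRNA, with the exception of Gabarapl2. Map1lc3a, which encodes LC3A, was at 1.04, 1.71 and 1.07 FPKM in NC, at 1.23, 0.762 and 1.12 FPKM in SFRP2 siRNA and at 3.59, 4.86 and 2.69 FPKM in RAB6A siRNA (log2 fold change 1.47, SE 0.25, adjusted p = 0.00117). Its RAB6A siRNA libraries varied more than those of its relatives but did not overlap NC. Map1lc3b was at 9.61, 9.60 and 8.36 FPKM in RAB6A siRNA and rose by 1.15 (SE 0.08, adjusted p = 1.16e-05).

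Gabarap, the most abundant ATG8 gene in each library, was at 90.0, 83.6 and 80.1 FPKM in SFRP2 siRNA and at 161, 166 and 152 FPKM in RAB6A siRNA. Against the NC values given above, it rose by 0.82 (SE 0.06, adjusted p = 9.84e-06). Gabarapl1 was at 21.6, 21.0 and 20.2 FPKM in NC, at 19.7, 21.0 and 16.3 FPKM in SFRP2 siRNA and at 24.6, 27.1 and 27.0 FPKM in RAB6A siRNA. It rose by 0.32 (SE 0.06, adjusted p = 0.00213), and 28.3% of its exon bases overlap another gene. Gabarapl2 was at 7.40, 7.75 and 7.04 FPKM in RAB6A siRNA and fell by 0.18 (SE 0.07, adjusted p = 0.0369). This call did not hold without 1 of NC replicate 2, NC replicate 3, RAB6A siRNA replicate 1 or RAB6A siRNA replicate 3 (adjusted p up to 0.122), nor after the correction for GC content and length (adjusted p = 0.965).

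**Figure D3:**
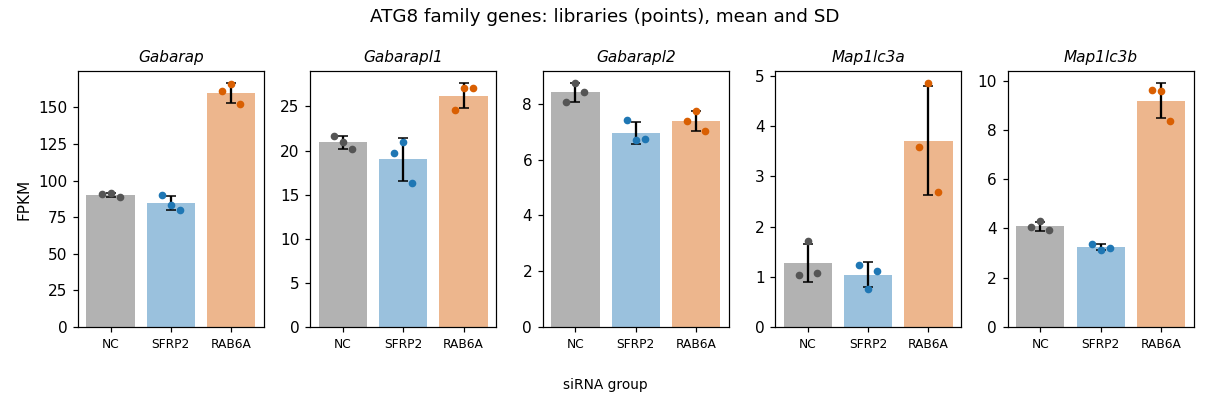
Bars give the mean FPKM of each ATG8 gene in the NC, SFRP2 and RAB6A siRNA groups, points are the 3 libraries and error bars the SD, and each panel has its own axis from 0. Gabarap reached 152 to 166 FPKM in RAB6A siRNA against 88.6 to 91.2 in NC, while Gabarapl2 had means of 8.41 in NC, 6.95 in SFRP2 siRNA and 7.40 in RAB6A siRNA.

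In sum over the family, ATG8 mRNA was at 125 ± 2.40 FPKM in NC, 115 ± 7.17 in SFRP2 siRNA and 206 ± 8.86 in RAB6A siRNA (SD, n = 3). Gabarap held 72.2% ± 0.321 of this sum in NC, 73.7% ± 0.984 in SFRP2 siRNA and 77.5% ± 0.563 in RAB6A siRNA. The share of Gabarapl2 went from 6.74% ± 0.263 to 3.58% ± 0.0198 in RAB6A siRNA, that of Gabarapl1 from 16.8% ± 0.420 to 12.7% ± 0.898 and that of Map1lc3b from 3.27% ± 0.0939 to 4.45% ± 0.213. For these 4 genes the shares in RAB6A siRNA and NC did not overlap, and each exact p was 0.1, the smallest possible. The share of Map1lc3b also depends on the length taken for it. With the length of its longest coding transcript, 2633 bases in place of 7517 bases for all exons, it was 6.83% in NC and 9.12% in RAB6A siRNA.

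**Figure D4:**
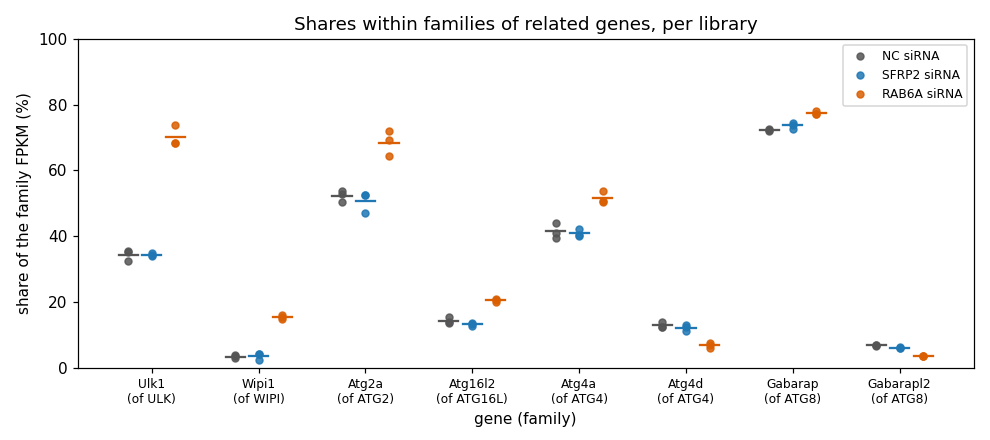
The vertical axis gives the share of a gene in the summed FPKM of its family in percent, points are libraries and lines are means for the NC, SFRP2 and RAB6A siRNA groups. The share of Ulk1 in the ULK pair was 34.3% in NC and 70.2% in RAB6A siRNA, and that of Gabarapl2 in ATG8 was 6.74% and 3.58%.

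Of the receptors and scaffolds, Calcoco1, which encodes a receptor for the endoplasmic reticulum, was at 2.21, 2.48 and 2.81 FPKM in NC, at 2.58, 2.63 and 2.43 FPKM in SFRP2 siRNA and at 6.16, 6.91 and 7.41 FPKM in RAB6A siRNA. It rose by 1.42 on the log2 scale (SE 0.11, adjusted p = 2.03e-05). Nbr1, a partner of p62, rose by 0.64 (adjusted p = 3.53e-05), and Tax1bp1, a receptor that binds ubiquitin, by 0.37 (adjusted p = 0.00272). Wdfy3, which encodes ALFY, a large scaffold for the clearance of protein aggregates, went the other way. It lies on chromosome 5 from 101832956 to 102069921 (GRCm38, - strand). Wdfy3 was at 17.3, 16.2 and 17.4 FPKM in NC, at 16.6, 17.0 and 17.5 FPKM in SFRP2 siRNA and at 7.10, 6.57 and 7.70 FPKM in RAB6A siRNA, and fell by 1.24 (SE 0.07, adjusted p = 6.02e-06). This was the lowest fold change of all members.

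Sqstm1 was at 315, 282 and 267 FPKM in SFRP2 siRNA and at 294, 334 and 273 FPKM in RAB6A siRNA, and both groups overlapped NC. Its log2 fold change was -0.19 in SFRP2 siRNA (unadjusted p = 0.0422, adjusted p = 0.257) and -0.13 in RAB6A siRNA (adjusted p = 0.219). After quantile normalization, the latter was -0.67 with an adjusted p of 0.00014. Of its exon bases, 17.3% overlap another gene. Epg5, the only tether among the members, which joins autophagosomes to lysosomes, was at 2.43, 2.13 and 2.26 FPKM in NC, at 2.38, 2.49 and 2.30 FPKM in SFRP2 siRNA and at 3.79, 3.75 and 3.89 FPKM in RAB6A siRNA, and rose by 0.72 (adjusted p = 0.000134).

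The siRNA groups were also set against each other. Of the 39 members tested, 5 were higher in SFRP2 siRNA than in RAB6A siRNA (12.8%, against 35.8% of all genes) and 25 were lower (64.1%, against 37.6%), while 73.4% of 12764 genes were called in all. The members higher in SFRP2 siRNA were Wdfy3 (log2 difference 1.25), Atg3 (0.68), Pik3c3 (0.60), Atg5 (0.48) and Atg2b (0.43). The call of Atg5 did not hold in every alternative. At the other end were Ulk1 (-1.94), Map1lc3a (-1.73) and Map1lc3b (-1.48). Wipi1, counted among the 25, was at -2.15 and again passed the filter only through the RAB6A siRNA group. The SFRP2 siRNA libraries were the lowest of the 9 for Map1lc3b. This comparison shares libraries with both others and is not separate evidence.

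A list of 50 further genes of autophagy, its regulation and the fusion with lysosomes was looked at in the same way. In SFRP2 siRNA, 0 of the 47 tested were called in limma, and 0 in voom, which called 42 of 11903 genes. At an unadjusted p under 0.05 in limma, 1 was higher (2.13%, against 7.73% of all genes) and 3 were lower (6.38%, against 10.7%). In RAB6A siRNA, 24 rose (51.1%, against 37.6% of all genes), 14 fell (29.8%, against 36.5%) and 9 did not pass. Their median log2 change was 0.28, and that of all genes was 0.03. Trp53inp1, a p53 target whose product binds ATG8 proteins, had the largest change among them. It was at 0.694, 0.724 and 0.559 FPKM in NC and at 15.8, 14.0 and 14.7 FPKM in RAB6A siRNA, a log2 fold change of 4.31 (SE 0.11, adjusted p = 5.13e-07).

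Tfeb, which encodes a transcription factor of lysosome and autophagy genes, was at 0.950, 0.965 and 1.01 FPKM in NC and at 4.0, 3.50 and 3.13 FPKM in RAB6A siRNA, and rose by 1.75 (SE 0.12, adjusted p = 9.8e-06). Bcl2, an inhibitor of cell death that also binds Beclin 1, rose by 1.58, and Bnip3l, a receptor for mitochondria, by 1.43. Wdr45, of the same protein family as the WIPI genes, rose by 1.09. Vps33a, a subunit of the HOPS complex that joins autophagosomes to lysosomes, was at 23.8, 21.1 and 22.8 FPKM in NC and at 9.83, 10.1 and 10.2 FPKM in RAB6A siRNA, and fell by 1.16 (SE 0.06, adjusted p = 4.16e-06).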

How the data were processed

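RNA-seq values of 9 libraries of RAW264.7 cells were used, grouped by their labels. The table deposited by the authors holds FPKM values for each gene in each library. The submitters' processing notes name HISAT2, featureCounts and Subread, without versions, and whether strand was used in counting is not given in the sources used here. The paper's methods differ from the labels in siRNA dose, culture medium and stimulation (LPS with IFN-γ), and the labels were followed. Of 28137 genes, 27533 were named from GENCODE M21 on GRCm38.

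FPKM times exon length gave whole reads in all 9 libraries for 27084 genes (98.4% of those named, tolerance 0.03 of a read), from which depth was stated. Intervals of these reads would cover counting error only.

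limma 3.58.1 (R 4.3.3, eBayes with a trend) was run for each comparison on FPKM values to which 0.1 was added before taking log2, over genes with a mean of at least 0.5 FPKM in its 6 libraries. Fold changes on this scale understate those of low genes. Genes were called at a Benjamini-Hochberg adjusted p under 0.05 over all genes tested, and counted again at an absolute log2 fold change over 1. The paper's methods name DESeq2, which needs counts. Shares within families were compared by exact two-sided permutation tests. Python 3.11.15 was used for other steps, and the fits were tested on simulated data.

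The members and lists were chosen with earlier results of these data known. Values in every library were given for the 6 highest and 6 lowest members in RAB6A siRNA, the 3 smallest p-values in each direction in SFRP2 siRNA, the most abundant member of each role and all ATG8 genes. From the further list, the 6 largest changes over 1 on the log2 scale were named. Ulk2 and other members without a call were named to account for all. Alternatives were other pseudocounts, filters, scalings, a replicate block, all libraries in 1 fit, each library left out, voom on recovered reads, and a GC content and length correction by splines with 5 degrees of freedom.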

Additional observations from a re-analysis of the deposited data

How the results depend on the processing

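For SFRP2 siRNA against NC, 0 members were called in any alternative. Over all genes, voom on the recovered reads called 42, and leaving out single libraries gave 0 to 1 (1 without NC replicate 1). For RAB6A siRNA against NC, the 8 members that fell became 5 without a filter on low values, with the replicate block and after the correction for GC content and length, and 5 to 7 when single libraries were left out (5 without NC replicate 3). The correction for GC content and length, called the GC correction below, takes both together. Across 12535 genes of this comparison, Spearman's rho of the log2 fold change was 0.078 with GC content and -0.214 with exon length. The members over 1 on the log2 scale in either direction, 9 in all, were 6 with a pseudocount of 1 and 11 after the GC correction. The members' median of 0.37 was 0.46 after quantile normalization and 0.52 after the GC correction. Of the 31 called members, 25 kept their call in every alternative in which they were tested. Atg13, Atg4b, Atg4d, Atg5, Gabarapl2 and Uvrag did not, and the cause was not tested. The 25 include Wipi1, which was not tested where a mean FPKM of at least 1 was required. It passed the other filter only through the RAB6A siRNA group, so that its call is no sign of stability. Of the 8 members without a call, 7 were called in some alternative: Atg101, Atg7, Becn1, Pik3r4 and Wipi2 after the GC correction, Sqstm1 after quantile normalization, and Ulk2 in voom and without RAB6A siRNA replicate 3. Between the siRNA groups, Becn1, Gabarapl2 and Pik3r4 were also called after the GC correction and Atg4d after quantile normalization.

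The log2 fold change of Atg13 in RAB6A siRNA turned to 0.013 after quantile normalization and 0.093 after the GC correction, and that of Rab6a to 0.018 after the latter. Between the siRNA groups, the GC correction turned Atg101 to 0.11 and Rab6a to -0.00067, and quantile normalization turned Sqstm1 to 0.56. There, 8 members over 1 became 14 after the GC correction, and the median of -0.47 became -0.53, with -0.53 to -0.40 when single libraries were left out. Calls of Atg101, Tax1bp1 and Wipi2 were lost there without some single libraries (adjusted p up to 0.13, 0.0583 and 0.12), and Atg10 was called without RAB6A siRNA replicate 1 (adjusted p = 0.0233). The call of Atg5 was lost there in some alternative, but not when single libraries were left out. Replicate numbers did not pair the libraries, since same-numbered libraries had a mean correlation of -0.0102 in their deviations, against 0.0051 for others. With the replicate block 22 members rose and 5 fell in RAB6A siRNA. Shares within families taken with transcript length in place of exon length were chosen after seeing the data. Depth limits Optn and Sfrp2, which had too few reads for a test.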
